A study of Homo sapiens with 6 samples.

Results

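The 10 genes described are the RNA and protein subunits of RNase P and RNase MRP that the deposited gene table lists under the symbols RPPH1, RMRP, POP1, POP4, POP5, POP7, RPP25, RPP30, RPP38 and RPP40. They are 10 of the 59609 rows of a table that holds all gene types, and they split into 2 RNA subunits and 8 protein subunits. They were picked with their levels in these same libraries in view, so their own values are given as a description, with no test. The cells are human neural cells made from the H9 embryonic stem cell line, at day 26 of differentiation, wild type and untreated in every library. Cytoplasmic RNA, nuclear RNA and RNA of whole cells ("total") were sequenced, with 2 libraries of each. The labels call the same cells both forebrain neuron progenitors and forebrain neurons, and nothing in them ties a replicate to a culture of its own. The p-values given for other genes thus reflect the variation among these libraries alone, and that may be technical.

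RNase P and RNase MRP are ribonucleoproteins in which an RNA chain carries the active site and a set of proteins, most of them shared, holds it in shape. Nuclear RNase P, built on the RNA RPPH1 (H1 RNA), trims the 5′ leader from precursor tRNAs. RNase MRP, built on the RNA RMRP, concentrates in the nucleolus and cuts the first internal transcribed spacer of precursor ribosomal RNA, and inherited changes in RMRP cause cartilage-hair hypoplasia. RNA polymerase III makes both RNAs from compact promoters that lie outside the transcribed sequence, while the protein subunits come from mRNAs. In the GENCODE v29 annotation RPP25 is a single exon of 3049 bases, and the other protein subunit genes have introns.

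The reference sequences of both RNA subunits are shown because the results turn on these RNAs, which had opposite ratios between cytoplasm and nucleus although they are related in function. They are taken from the GENCODE v29 transcripts of build GRCh38. RPPH1 lies at chr14:20343075-20343407 on the minus strand as a single exon of 333 bases, and RMRP lies at chr9:35657751-35658018 on the minus strand as a single exon of 268 bases. RPPH1 is printed from base 1 to base 300 (chr14:20343108-20343407) and RMRP whole. Capitals mark the only match of each RNA, read 5′ to 3′ on its own strand, to GGAANGTC, letters that open a conserved core region of RNase P and MRP RNAs.
RPPH1: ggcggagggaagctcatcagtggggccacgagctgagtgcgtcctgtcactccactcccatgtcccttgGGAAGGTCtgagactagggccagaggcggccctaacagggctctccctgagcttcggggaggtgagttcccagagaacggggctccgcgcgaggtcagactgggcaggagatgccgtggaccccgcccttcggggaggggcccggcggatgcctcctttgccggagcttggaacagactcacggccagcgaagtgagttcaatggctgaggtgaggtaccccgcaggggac
RMRP: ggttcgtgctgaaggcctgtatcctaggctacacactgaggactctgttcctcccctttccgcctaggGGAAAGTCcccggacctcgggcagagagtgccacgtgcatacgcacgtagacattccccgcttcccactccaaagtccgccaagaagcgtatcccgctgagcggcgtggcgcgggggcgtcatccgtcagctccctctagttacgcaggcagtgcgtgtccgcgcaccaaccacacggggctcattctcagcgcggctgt
The match, GGAAGGTC in RPPH1 and GGAAAGTC in RMRP, covers bases 70 to 77 of RPPH1 and bases 69 to 76 of RMRP, counted from 1 at the 5′ end. Among 7523 GENCODE v29 transcripts of 250 to 350 bases, 149 (1.98%) hold these letters. Base composition is alike, at 64.6% G and C in RPPH1 and 63.1% in RMRP. The longest run of letters found in both RNAs is the 9 bases ACGGGGCTC. Neither RNA is in the promoter table used here.

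The libraries held about 38700000 and 45700000 fragments in cytoplasm, 120300000 and 111800000 in nucleus, and 34900000 and 37400000 in total, as worked out from the steps between low values. Exons took 59.0 to 60.3% of fragments in cytoplasm, 23.1 to 24.8% in nucleus and 58.7 to 66.5% in total. All 10 forebrain progenitor markers and all 7 neuron markers checked averaged at least 1 FPKM (fragments scaled by exon length and by the depth of the library), while none of 6 glial markers did. Of 5 pluripotency markers, 2 did: LIN28A, at 14.2 and 13.5 FPKM in cytoplasm, 3.76 and 4.28 FPKM in nucleus and 4.68 and 5.84 FPKM in total, and DPPA4, with a mean of 1.89 FPKM. The defining pluripotency genes POU5F1 and NANOG stayed at or below 0.0759 and 0.0103 FPKM. Among 8 mesenchymal, endothelial and microglial markers, 2 averaged at least 1 FPKM: COL3A1 at 23.9 FPKM and COL1A1 at 7.25 FPKM. The summed level of the neuron markers was 278 and 251 FPKM in cytoplasm, 84.4 and 98.6 FPKM in nucleus, and 515 and 580 FPKM in total. That of the progenitor markers was 834 and 778 FPKM in cytoplasm, 360 and 389 FPKM in nucleus, and 446 and 473 FPKM in total. Neuron markers were thus highest in the total libraries and progenitor markers in the cytoplasmic ones, and the part of this in the levels given here was not tested. In bulk RNA, fewer cells of a type and less RNA per cell cannot be told apart.

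RPPH1 had its highest level in the cytoplasmic libraries. It stood at 11554 and 14148 FPKM in cytoplasm, at 1193 and 1215 FPKM in nucleus, and at 3485 and 4457 FPKM in total. The fractions did not overlap, and the order was cytoplasm, then total, then nucleus. On average RPPH1 reached 12851 ± 1834 FPKM in cytoplasm, 1204 ± 15.3 FPKM in nucleus and 3971 ± 687 FPKM in total (SD, n = 2 each). The level in cytoplasm was 10.7 times that in nucleus, and between 9.51 and 11.9 times over the 4 pairs of libraries. It was 3.24 times the level in total, and the nuclear level was 0.303 times that in total. Ranked among all rows by level, RPPH1 came at place 8 and 7 in cytoplasm, 14 and 14 in nucleus, and 12 and 11 in total. These values rest on 148718 and 215269 fragments in cytoplasm, 47808 and 45210 in nucleus, and 40451 and 55543 in total, so counting error is small beside the spread between libraries.

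RMRP showed the opposite order between cytoplasm and nucleus. It stood at 5662 and 6998 FPKM in cytoplasm, at 13512 and 11244 FPKM in nucleus, and at 4027 and 4846 FPKM in total. Both nuclear libraries were above all others, and both total libraries were below all others. On average RMRP reached 6330 ± 945 FPKM in cytoplasm, 12378 ± 1603 FPKM in nucleus and 4437 ± 579 FPKM in total (SD, n = 2 each). Its cytoplasmic level was 0.511 times its nuclear level, between 0.419 and 0.622 times over the 4 pairs, which is the same as a nuclear level 1.96 times the cytoplasmic one. Set against total, its level was 1.43 times in cytoplasm and 2.79 times in nucleus. Its place among all rows was 12 and 12 in cytoplasm, 6 and 6 in nucleus, and 11 and 9 in total. The nuclear values rest on 435793 and 336848 fragments, and the cytoplasmic ones on 58654 and 85695 fragments.

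The total level of RMRP lay below both of its fraction levels, in every library. Of 13431 genes that averaged at least 1 FPKM over the 6 libraries, 1.33% (179 genes) had both total libraries below all 4 fraction libraries. POP1, the largest protein of both enzymes, had the reverse arrangement, with both total libraries above all 4 others, as did 49.6% of the genes (6656). The total libraries of the other 8 subunits were not outside both fractions.

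**Figure D1:**
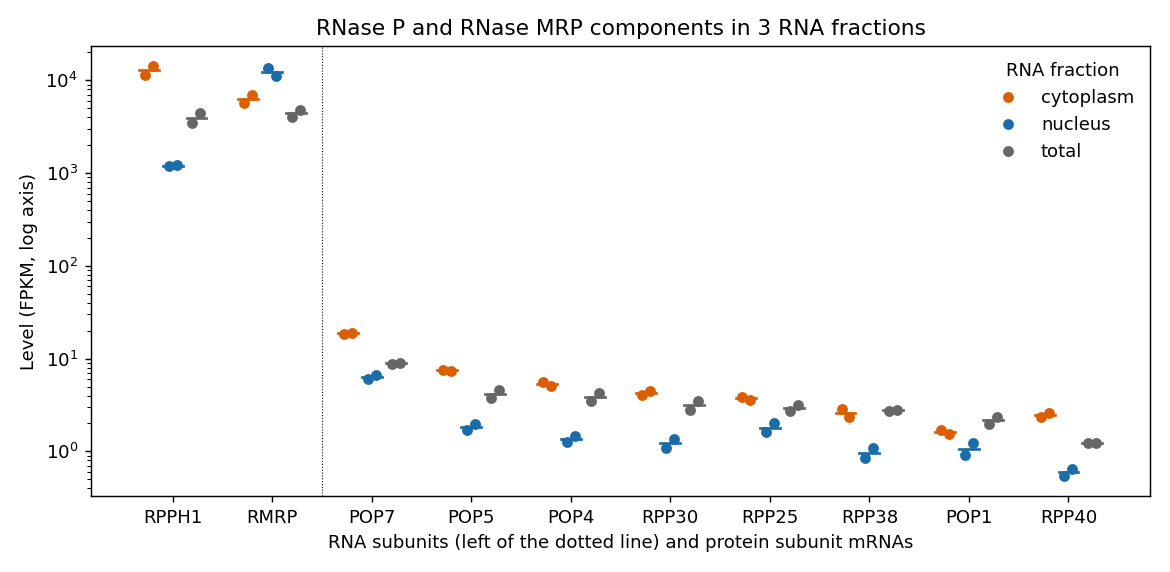
Level of each subunit in FPKM on a log axis, by RNA fraction: cytoplasm, nucleus and total from left to right within each gene. Points are single libraries and short lines are the means of 2 libraries; RPPH1 and RMRP lie between 1193 and 14148 FPKM with their cytoplasmic and nuclear points in opposite order, while the protein subunit mRNAs lie between 0.546 and 18.8 FPKM with all cytoplasmic points above the nuclear ones.

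Within a library, the ratio of RPPH1 to RMRP does not depend on how that library was scaled. RPPH1 was 2.04 and 2.02 times RMRP in cytoplasm, 0.0883 and 0.108 times RMRP in nucleus, and 0.865 and 0.920 times RMRP in total. The ratio was above 1 in both cytoplasmic libraries and below 1 in the other 4. It averaged 2.03 ± 0.0134 in cytoplasm, 0.0982 ± 0.0139 in nucleus and 0.893 ± 0.0384 in total (SD, n = 2 each). The differences between fractions were larger than the spread between replicates. As a share of all fragments in exons, RPPH1 took 0.639 and 0.799% in cytoplasm, 0.172 and 0.163% in nucleus, and 0.198 and 0.223% in total. RMRP took 0.252 and 0.318% in cytoplasm, 1.57 and 1.21% in nucleus, and 0.184 and 0.195% in total.

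In the deposited table RPPH1 shares the fragments of its locus equally with another gene. The GENCODE v29 annotation places an antisense-class noncoding gene, AL355075.4, at chr14:20343048-20343685 on the same minus strand, and all 333 bases of RPPH1 lie inside its 638 bases. In the gene table AL355075.4 had 6031 and 7385 FPKM in cytoplasm, 623 and 634 FPKM in nucleus, and 1820 and 2327 FPKM in total. Converted to fragments, RPPH1 and AL355075.4 were equal, with ratios from 0.9996 to 0.9999 over the 6 libraries. The separate lncRNA table lists only AL355075.4 at this locus, with 12066 and 14773 FPKM in cytoplasm, 1246 and 1269 FPKM in nucleus, and 3640 and 4655 FPKM in total, which is both shares together.

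With both shares assigned to RPPH1, an alternative added after the data were seen, its level became 23118 and 28304 FPKM in cytoplasm, 2387 and 2431 FPKM in nucleus, and 6974 and 8920 FPKM in total. That is 2.0 times the deposited value in every library, so the ratios between fractions stay as they were, and its shares of exon fragments rise by the same factor. Its place among all rows became 6 and 6 in cytoplasm, 11 and 11 in nucleus, and 10 and 9 in total. The ratio to RMRP does move: it became 4.08 and 4.04 in cytoplasm, 0.177 and 0.216 in nucleus, and 1.73 and 1.84 in total. In total RNA the order of the 2 RNA subunits therefore turns on this assignment, with RMRP above the deposited RPPH1 but below the RPPH1 of both shares. In cytoplasm RPPH1 was above RMRP under both assignments, and in nucleus it was below RMRP under both. For RMRP the gene table and the lncRNA table differed by 0.0248 to 0.0685%. GENCODE v29 holds 2 entries named RMRP at the same place, of 268 and 264 bases, and the table gives 1 row for them.

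**Figure D2:**
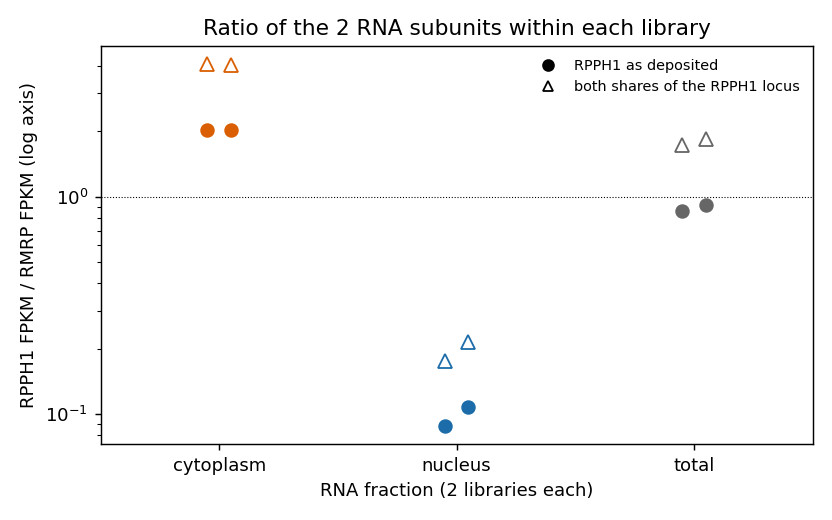
Ratio of RPPH1 FPKM to RMRP FPKM within each library, on a log axis, in cytoplasm, nucleus and total. Filled points use the deposited RPPH1 level and open triangles use both shares of its locus; the dotted line marks a ratio of 1, and in total the points at 0.865 and 0.920 fall below it while the triangles at 1.73 and 1.84 fall above it.

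The 8 protein subunit mRNAs were far less abundant than either RNA. Their median level was 3.96 and 4.05 FPKM in cytoplasm, 1.17 and 1.41 FPKM in nucleus, and 2.78 and 3.32 FPKM in total. RPPH1 exceeded this median 2921 and 3497 times in cytoplasm, 1020 and 862 times in nucleus, and 1254 and 1343 times in total, and with both shares of its locus 5845 and 6995 times in cytoplasm, 2041 and 1726 times in nucleus, and 2510 and 2687 times in total. RMRP exceeded it 1431 and 1729 times in cytoplasm, 11549 and 7982 times in nucleus, and 1449 and 1460 times in total. FPKM is scaled by exon length. The libraries were size-selected on beads, per the labels' protocols, and the part of that step in the levels of RNAs this short was not tested.

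POP1, a scaffold subunit that contacts the RNA of both enzymes, had the lowest ratio of cytoplasm to nucleus among the protein subunits in the deposited values. It had 1.69 and 1.52 FPKM in cytoplasm, 0.916 and 1.22 FPKM in nucleus, and 1.95 and 2.37 FPKM in total. Its cytoplasmic level was 1.5 times its nuclear level, 1.24 to 1.84 times over the pairs of libraries, and 0.744 times its total level. That range just overlapped the 1.79 to 2.40 times of RPP25.

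POP4 (also called RPP29) and POP5, core subunits with relatives in archaeal RNase P, had among the highest ratios of cytoplasm to nucleus of the mRNAs. POP4 had 5.57 and 5.11 FPKM in cytoplasm, 1.26 and 1.45 FPKM in nucleus, and 3.54 and 4.23 FPKM in total. POP5 had 7.62 and 7.34 FPKM in cytoplasm, 1.68 and 1.99 FPKM in nucleus, and 3.80 and 4.60 FPKM in total. In both genes the fractions did not overlap, with cytoplasm highest and nucleus lowest. The cytoplasmic level was 3.93 times the nuclear one for POP4 and 4.08 times for POP5.

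POP7 (RPP20) and RPP25 form a pair of Alba-family proteins that binds the RNA. POP7 was the most abundant protein subunit mRNA in all 6 libraries, at 18.5 and 18.8 FPKM in cytoplasm, 6.0 and 6.70 FPKM in nucleus, and 8.78 and 8.97 FPKM in total. RPP25 was lower, at 3.84 and 3.62 FPKM in cytoplasm, 1.60 and 2.02 FPKM in nucleus, and 2.76 and 3.18 FPKM in total. Cytoplasm again stood highest and nucleus lowest in both. The cytoplasmic level was 2.94 times the nuclear one for POP7 and 2.06 times for RPP25. Averaged over libraries, POP7 was at 18.7 ± 0.211 FPKM in cytoplasm and RPP25 at 3.73 ± 0.161 FPKM (SD, n = 2 each), so the partners were not present at equal mRNA levels.

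RPP30, which pairs with POP5 in the core of the enzymes, had 4.07 and 4.48 FPKM in cytoplasm, 1.08 and 1.36 FPKM in nucleus, and 2.80 and 3.46 FPKM in total. RPP38, a subunit of the family that binds kinked RNA helices, had 2.86 and 2.37 FPKM in cytoplasm, 0.854 and 1.08 FPKM in nucleus, and 2.72 and 2.82 FPKM in total. RPP40 had 2.36 and 2.63 FPKM in cytoplasm, 0.546 and 0.640 FPKM in nucleus, and 1.25 FPKM in both total libraries. Nucleus was lowest in all 3 genes. In RPP38 the cytoplasmic and total libraries overlapped, and in the other 2 genes they did not. The ratio of cytoplasm to nucleus was 4.21 for RPP40, 3.50 for RPP30 and 2.71 for RPP38. Over the pairs of libraries RPP40 ranged from 3.69 to 4.81 and POP5 from 3.70 to 4.53, so which mRNA has the highest ratio is not resolved. The depth behind the mRNAs was thin: RPP40 rests on 85 to 236 fragments per library and RPP38 on 183 to 232.

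Ordered by mean level in cytoplasm, the mRNAs ran POP7, POP5, POP4, RPP30, RPP25, RPP38, RPP40 and POP1, and of these neighbours only RPP38 and RPP40 overlapped. In nucleus the order was POP7, POP5, RPP25, POP4, RPP30, POP1, RPP38 and RPP40, with POP5 and RPP25 overlapping and each neighbour from POP4 to RPP38 overlapping the next. In total it was POP7, POP5, POP4, RPP30, RPP25, RPP38, POP1 and RPP40, with overlap between POP5 and POP4 and between each neighbour from RPP30 to RPP38. POP1 was the lowest of the 8 in cytoplasm, the sixth in nucleus and the seventh in total. Some mRNAs share exon bases with genes on the other strand, 246 bases with SCAMP5 for RPP25 and 379 bases with NMT2 for RPP38. Whether counting used strand is not given in the sources used here, so reads of these overlaps are uncertain.

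Counted over the 10 subunits, both cytoplasmic libraries were above both nuclear ones in 9, while RMRP was below. Over the 13431 genes tested, 88.5% had the first arrangement and 4.89% the second. Set against total, cytoplasm was above in 8 subunits, below in POP1 and overlapping in RPP38, where the shares over all genes were 35.4% above and 50.7% below. Nucleus was below total in 9 subunits and above it in RMRP, beside shares of 94.5% below and 2.14% above. These counts use the values that led to the choice of the genes, so nothing is read from them.

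On the scale of log2(FPKM + 1), RPPH1 differed by 3.41 between cytoplasm and nucleus, the 12th largest difference in favour of cytoplasm among the 13431 genes. RMRP differed by -0.97, the 129th from the bottom, while its difference of 1.48 between nucleus and total ranked 12th from the top. The protein subunits had a median difference of 1.19 between cytoplasm and nucleus, from 0.34 in POP1 to 1.58 in POP5. Over all genes that median was 0.78. Between cytoplasm and total, RPPH1 differed by 1.70, RMRP by 0.51 and the protein median by 0.37, beside -0.16 over all genes. Between nucleus and total the differences were -1.71 for RPPH1, 1.48 for RMRP and -0.74 for the protein median, beside -1.03 over all genes.

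The protein median was then subtracted from each RNA. RPPH1 stood 2.22 above the median protein subunit in its difference between cytoplasm and nucleus, and RMRP stood at -2.16. The sizes depend on the pseudocount, which shrinks the differences of the mRNAs more than those of the RNAs, and on the scaling: RPPH1 gave 1.77 to 2.90 and RMRP -2.61 to -1.47 over these settings, each on its own side of the protein median. Between nucleus and total the same values were -0.97 for RPPH1 and 2.22 for RMRP. Between cytoplasm and total they were 1.33 for RPPH1 and 0.14 for RMRP. Without cytoplasm replicate 2 that last value for RMRP was -0.0076, so its side of the protein median was set by 1 library.

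Most genes had lower FPKM in the nuclear libraries, so a direction depends on how libraries are brought to a common level. With limma (Benjamini-Hochberg adjusted p below 0.05), 11265 genes were higher and 412 lower in cytoplasm than in nucleus, which is 83.9% and 3.07% of those tested and 86.9% together. Between cytoplasm and total 72.8% were called (28.4% higher, 44.3% lower), and between nucleus and total 94% (1.6% higher, 92.4% lower). After all libraries were scaled to a common median over the tested genes, which moved the median difference by -0.72, 5192 were higher and 3808 lower. Under this scaling the difference between cytoplasm and nucleus stayed positive for RPPH1 at 2.28 and negative for RMRP at -2.10. FPKM is a share of each library, so with or without scaling these differences do not give the amount of an RNA in each compartment. Where in the cell most of an RNA lies was not measured. The protein median stayed positive at 0.46, while POP1 turned to -0.33 and RPP25 to -0.06. Between nucleus and total the scaling moved the median of all genes by 1.05, and the direction turned in POP1, POP5, POP7, RPP25, RPP30 and RPP40, to values from 0.09 in RPP30 to 0.89 in POP7. RPPH1 kept its side there but moved from -1.71 to -0.22, so the gap between its nuclear and total levels nearly closed. RMRP kept its side at 2.97. Between cytoplasm and total the median moved by 0.27, and RPP38, at -0.06 as deposited, turned to 0.18. The other 9 subunits kept their side there, with 2.06 for RPPH1, 0.88 for RMRP and -0.03 for POP1.

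**Figure D3:**
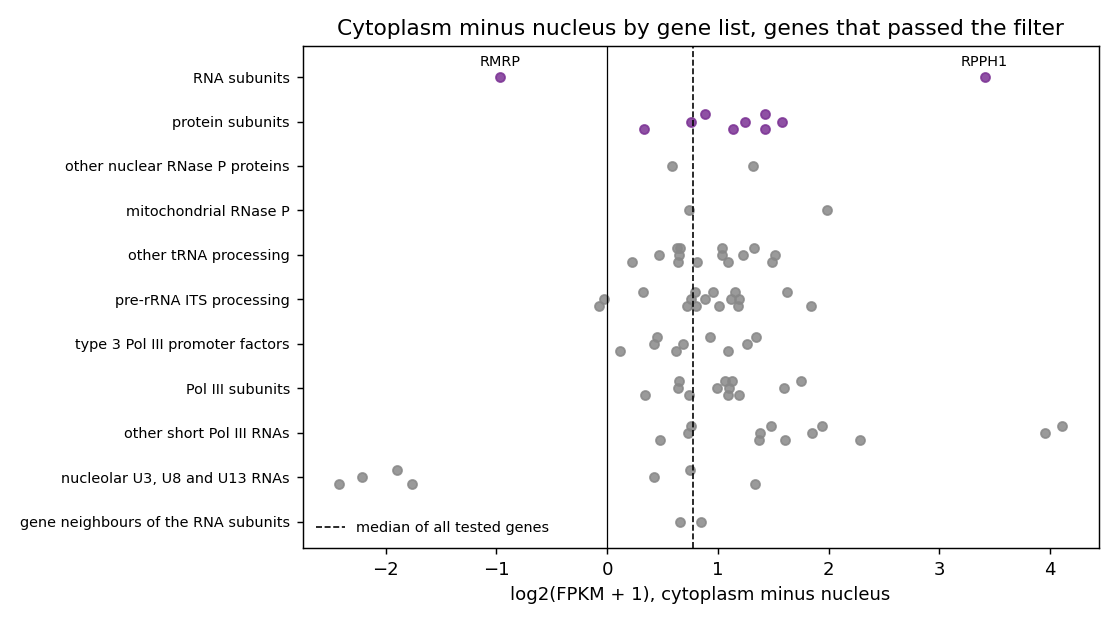
Difference between cytoplasm and nucleus in log2(FPKM + 1) for each gene that passed the filter, by list, with the RNA subunits and protein subunits in the top rows. The solid line marks 0 and the dashed line the median of all tested genes, 0.78; RPPH1 at 3.41 and RMRP at -0.97 lie to either side of all 8 protein subunits, and 4 U3 RNAs lie below RMRP.

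Further proteins linked to nuclear RNase P were scored with limma across all genes. RPP25L, a relative of RPP25, was higher in cytoplasm at 8.14 and 7.81 FPKM, against 2.38 and 2.83 FPKM in nucleus, by 1.32 ± 0.12 on the log2 scale (SE, adjusted p = 1.01e-09). It was more abundant than RPP25 in cytoplasm and nucleus, and its levels in nucleus and in total, 2.71 and 3.13 FPKM, overlapped. RPP14 had 1.44 and 1.38 FPKM in cytoplasm against 0.531 and 0.674 FPKM in nucleus, a limma difference of 0.59 ± 0.12 (SE, adjusted p = 6.26e-05), and this call was lost after median scaling (0.06, adjusted p = 0.385). RPP21, a protein found in RNase P but not in RNase MRP, stayed between 0.0342 and 0.218 FPKM and was not tested. It shares 452 exon bases with the read-through gene TRIM39-RPP21 on the same strand, and RPP14 shares 1885 with HTD2, so the split of their fragments is uncertain.

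Mitochondria use an RNase P made of protein alone. Its nuclease PRORP had 0.919 and 0.874 FPKM in cytoplasm, 0.361 and 0.414 FPKM in nucleus, and 0.887 and 1.03 FPKM in total, below the level needed for the test. HSD17B10, the dehydrogenase subunit, was higher in cytoplasm than in nucleus by 1.99 ± 0.13, and TRMT10C, the methyltransferase subunit, by 0.74 ± 0.13 (limma, SE, adjusted p = 5.56e-12 for HSD17B10 and 1.34e-05 for TRMT10C). After median scaling HSD17B10 kept its call at 0.94, and TRMT10C lost it at 0.03 (adjusted p = 0.791).

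Genes that act with the enzymes or make their RNAs are set beside the 83.9% of all tested genes that were higher in cytoplasm. Of 14 other tRNA processing genes tested, 13 were higher in cytoplasm and none lower, with a median of 0.92, and after median scaling 5 were higher and 3 lower. The ligase RTCB was higher by 1.52, its partner helicase DDX1 by 1.03, the La protein SSB by 0.81 and the 3′ processing nuclease ELAC2 by 0.65. After median scaling only RTCB of these 4 was still called higher, DDX1 was at 0.04 and SSB at -0.12 with no call, and ELAC2 was called lower at -0.27. Of 16 genes that process the ribosomal spacers, 14 were higher and none lower, with a median of 0.92, and after scaling 5 were higher and 3 lower. Among these RRP36 differed by 1.84, PES1 by 1.18, the exonuclease XRN2 by 1.01 and BOP1 by 0.95. After scaling only RRP36 of these 4 kept its call, while PES1 was at 0.14, XRN2 at 0.04 and BOP1 at -0.03.

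The RNA polymerase III machinery gave similar counts. Of 9 factors that serve promoters of the RPPH1 and RMRP kind, 8 were higher in cytoplasm and none lower, with a median of 0.68, and after scaling 4 were higher and 2 lower. TBP was higher by 1.35, the SNAPc subunits SNAPC2 by 1.26 and SNAPC3 by 0.68, and the octamer factor POU2F1 by 0.42. After scaling TBP and SNAPC2 kept their calls, SNAPC3 lost its call at 0.03, and POU2F1 was called lower at -0.26. All 12 tested subunits of the polymerase were higher, with a median of 1.08, and after scaling 6 were higher and 3 lower. POLR3K differed by 1.75, CRCP by 1.60 and the catalytic subunit POLR3A by 0.65. After scaling POLR3K and CRCP kept their calls, and POLR3A was called lower at -0.19.

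Short RNAs were compared next. Apart from RPPH1 and RMRP, all 12 tested RNAs made by RNA polymerase III were higher in cytoplasm than in nucleus. Their median difference was 1.54, and 83.9% of all genes tested were higher. The 12 include the U6 spliceosomal RNAs RNU6-2, RNU6-7 and RNU6-8, named after their values were seen. Their cytoplasmic levels were 2.97, 4.33 and 3.60 times the nuclear ones. After median scaling 7 of the 12 were higher and none lower, beside 5192 higher and 3808 lower of 13431. The transcription regulator RN7SK had 72498 and 72426 FPKM in cytoplasm against 15600 and 14237 FPKM in nucleus, a difference of 2.28 (limma adjusted p = 2.06e-10). The neuronal RNA BCYRN1 differed by 3.96, more than RPPH1, and the signal recognition particle RNAs RN7SL1 by 0.75 and RN7SL2 by 0.73. RN7SL1 and RN7SL2 lost their calls after median scaling, at -0.37 and -0.40, and they are uncertain because near-identical copies share their reads.

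Of 7 nucleolar RNAs that guide cuts in precursor ribosomal RNA or serve its maturation, 4 were lower in cytoplasm than in nucleus and 3 higher, beside 3.07% lower and 83.9% higher over all genes tested. After median scaling 6 were lower and 1 higher, beside the 3808 lower and 5192 higher of 13431. The U3 RNA SNORD3A had 332 and 547 FPKM in cytoplasm against 2086 and 2512 FPKM in nucleus, and fell by 2.42 (limma adjusted p = 5.55e-08). The U3 copies SNORD3C, SNORD3D and SNORD3B-1 fell by 2.21, 1.89 and 1.76, and each is uncertain because the copies are near-identical. The 3 that were higher, named after their values were seen, are the U8 RNA SNORD118 at 1.33, the U3 copy SNORD3B-2 at 0.75 and the U13 RNA SNORD13 at 0.42. After median scaling SNORD3B-2 turned to -0.34 and SNORD13 to -0.68, both called lower. RMRP, at -0.97, lay between the 4 that were lower and the 3 that were higher.

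**Figure D4:**
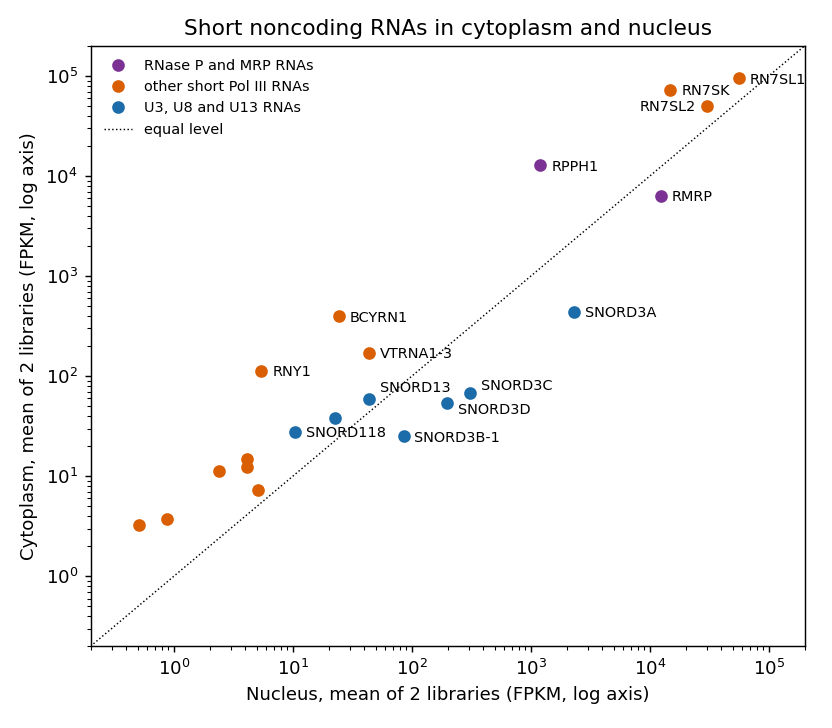
Mean level in cytoplasm (vertical) against mean level in nucleus (horizontal) for short noncoding RNAs that passed the filter, in FPKM on log axes, each point an RNA and each mean over 2 libraries. RPPH1 lies above the line of equal level with the 12 RNA polymerase III RNAs other than the subunits. RMRP lies below it with SNORD3A, SNORD3B-1, SNORD3C and SNORD3D. Labels other than those of the subunits were placed after the values were seen.

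The protein-coding neighbours of both RNA genes were each higher in cytoplasm than in nucleus, as were 83.9% of all genes tested. PARP2, a DNA repair enzyme whose gene starts beside RPPH1 on the opposite strand, had 2.77 and 2.92 FPKM in cytoplasm, 1.37 and 1.5 FPKM in nucleus, and 5.61 and 5.79 FPKM in total. CCDC107, which starts beside RMRP on the opposite strand, had 3.08 and 3.48 FPKM in cytoplasm, 1.37 and 1.39 FPKM in nucleus, and 2.53 and 2.45 FPKM in total. Cytoplasm over nucleus was 1.98 for PARP2, against 10.7 for RPPH1. It was 2.38 for CCDC107, against 0.511 for RMRP. Of the CCDC107 exon bases, 1111 (76.1%) overlap ARHGEF39 on the other strand, so the CCDC107 level is uncertain. PARP2 shares 104 exon bases (2.54%) with AL355075.4 on the other strand. Those bases lie outside RPPH1. The fragments of RPPH1 and AL355075.4 were equal, with ratios from 0.9996 to 0.9999, so few AL355075.4 fragments can fall on the shared bases. The effect of this overlap on the PARP2 level was not tested. On the log2 scale PARP2 differed by 0.66 and CCDC107 by 0.85, beside a median of 0.78 over all genes. Neither was called after median scaling, at -0.10 for PARP2 and 0.09 for CCDC107.

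Likeness to each subunit was measured as the Euclidean distance over the 6 libraries between log2(FPKM + 1) values centred on each gene's mean, among 4252 genes that averaged at least 5 FPKM. After AL355075.4 of the same locus (0.00148), the genes nearest to RPPH1 were the mitochondrial tRNAs MT-TS1 at 0.561, MT-TY at 0.580 and MT-TC at 0.610, and the unannotated AC051649.2 at 0.620. Nearest to RMRP were the small nucleolar RNAs SNORA64 at 0.457, SNORD32A at 0.499, SNORD35A at 0.688 and SNORA57 at 0.741, followed by the receptor gene NOTCH1 at 0.746. SNORA64 had 5.70 and 8.82 FPKM in cytoplasm, 19.0 and 15.6 FPKM in nucleus, and 5.46 and 7.78 FPKM in total, so it too had its highest values in nucleus. MT-TY had 1507 and 1326 FPKM in cytoplasm, 93.7 and 96.9 FPKM in nucleus, and 324 and 400 FPKM in total, in the order of RPPH1.

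The 3 genes nearest to each protein subunit lay at distances from 0.0333 to 0.121, and 21 of these 24 were protein-coding genes. The pseudocount shrinks differences of low mRNAs, and neighbours had to average at least 5 FPKM. These distances therefore cannot be compared with those of the RNA subunits. POP5 was nearest to STK40 (0.0333), EIF4A3 (0.0454) and TKT (0.0644). POP4 was nearest to PBX2 (0.0562), RPP25 to CYBC1 (0.0532), POP7 to PYCR1 (0.0783) and RPP38 to CDK9 (0.0820). For RPP30 the nearest was the antisense RNA AC133550.2 (0.0982), for RPP40 MEX3D (0.102) and for POP1 the transcription factor JUN (0.105).

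Circular RNAs from the subunit genes were at the edge of detection. Of 31559 circular RNAs in the deposited list, 2 came from POP1 and 1 from RPP40, and none from the other 8 genes. The POP1 rings at chr8:98123336-98130226 and chr8:98136482-98136954 had 1 and 2 back-splice reads, all in total replicate 2 (0.0985 and 0.197 in the authors' unit FPB). The RPP40 ring at chr6:4999809-5002245 had 1 read, in cytoplasm replicate 1 (0.0499 FPB). Each is below the 3 reads that a count of 0 allows in another library, so no difference between fractions was detectable at this depth.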

How the data were processed

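The gene levels are FPKM computed by the authors, 1 column per library, per the file headers. Circular RNAs are given as FPB, a signal of back-splice reads scaled by the authors, per the file headers; every FPB value came in whole multiples of the smallest one of its library (100% of values), which gave reads. Per the labels' protocols, libraries were stranded and made from RNA depleted of ribosomal RNA. Tools listed in the submitters' processing notes are featureCounts 2.0.1, HISAT2 2.1.0, Bowtie, SAMtools 1.9 and Trimmomatic 0.39, with builds GRCh38 and hg38. What each tool did, which annotation was counted, whether strand was used and how overlapping genes were handled is not given in the sources used here. GENCODE v29 gave an exon length for 54940 genes (92.2% of rows). FPKM multiplied by these lengths came in steps, from which the depths and fragments given here were worked out; 68.3 to 76.1% of values of up to 20 fragments were whole or lay midway between whole steps (within 0.05 of a step), and 53.2 to 64.6% were whole, too few for a count test.

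Since FPKM are not counts, limma 3.58.1 (R 4.3.3) was run on log2(FPKM + 1) with an intensity trend over all 6 libraries, for 13431 genes averaging at least 1 FPKM, with Benjamini-Hochberg adjustment and a threshold of 0.05; a difference on this scale understates the change of low genes. The fit had 3 residual degrees of freedom beside a prior of 19.6, so its p-values rest mostly on spread shared across genes. On simulated data for cytoplasm against nucleus (200 of 13431 genes changed), it recovered 86% of changes of 2-fold and 99% of 4-fold, with 16 false calls. The simulation used normal noise, spreads shuffled across genes and no shift common to most genes. In the real comparison 86.9% of genes were called, so these rates do not carry over to it. The subunits and gene lists were chosen with earlier results of these data known. From each list the 4 genes with the highest mean that passed the filter, and those called lower in cytoplasm, are named; all genes of the RNase P, mitochondrial RNase P and neighbour lists are named. A gene that this rule would name is not reported here. Replicates were not copies: their fragments differed by more than counting error (chi-square per degree of freedom from 5.14 to 14.6). Tables were handled with Python 3.11.15, pandas 2.3.3 and numpy 2.4.6. Alternatives were other pseudocounts, filters, scalings, limma settings, a replicate block and leaving out each library.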

Additional observations from a re-analysis of the deposited data

How the results depend on the processing

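Counts of genes called moved most with the filter and the scaling. With a filter of 5 FPKM, fewer genes could be tested: 4073 were called between cytoplasm and nucleus (3917 higher, 156 lower), 3190 between cytoplasm and total (2052 higher, 1138 lower) and 4027 between nucleus and total (108 higher, 3919 lower). With no filter, 22981 were called between cytoplasm and total (18619 lower) and 28638 between nucleus and total (28373 lower). With libraries scaled to a common median, 5192 were higher and 3808 lower between cytoplasm and nucleus, 6218 were higher between cytoplasm and total, and 4955 were higher and 4717 lower between nucleus and total. With each gene's own spread, 235 were lower between cytoplasm and nucleus and 138 higher between nucleus and total. The cause of these shifts beyond the number of genes tested was not tested.

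For the difference between cytoplasm and nucleus relative to the median protein subunit, RPPH1 gave 1.77 with a pseudocount of 0.1 FPKM, 2.90 with 5 FPKM and 1.83 after median scaling, and RMRP gave -2.61, -1.47 and -2.55 under these settings. Between nucleus and total, RPPH1 gave -0.65, -1.37 and -0.43, and RMRP gave 2.54, 1.82 and 2.76. With the filter of 5 FPKM fewer than 8 protein subunits pass, so no such value was made. Median scaling turned the direction between cytoplasm and nucleus in POP1 (-0.33), RPP25 (-0.057), ELAC2 (-0.27), SSB (-0.12), BOP1 (-0.026), POU2F1 (-0.26), POLR3A (-0.19), RN7SL1 (-0.37), RN7SL2 (-0.40), PARP2 (-0.10), SNORD3B-2 (-0.34) and SNORD13 (-0.68). Among the subunits, it turned POP1 (0.29), POP5 (0.22), POP7 (0.89), RPP25 (0.55), RPP30 (0.089) and RPP40 (0.20) between nucleus and total. Between cytoplasm and total RPP38 (0.18) was the only subunit that turned. Other named genes also turned in these comparisons and are not listed, among them RN7SK between nucleus and total, from -0.80 to 0.69.

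Leaving out each library in turn gave 10612 to 11704 calls between cytoplasm and nucleus (10238 to 11275 higher, 329 to 469 lower), 8619 to 10047 between cytoplasm and total (2967 to 4147 higher, 4472 to 6280 lower), and 11437 to 12996 between nucleus and total (170 to 261 higher, 11176 to 12826 lower). A fraction left with 1 library was assumed to vary like the others. Relative to the median protein subunit, RPPH1 ranged from 2.13 to 2.31 and RMRP from -2.36 to -1.96 between cytoplasm and nucleus, RPPH1 from 1.19 to 1.47 and RMRP from -0.0076 to 0.29 between cytoplasm and total, and RPPH1 from -1.05 to -0.89 and RMRP from 2.0 to 2.45 between nucleus and total.

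Same-numbered replicates deviated together with correlations of -0.126 between cytoplasm and nucleus, 0.0594 between cytoplasm and total, and 0.307 between nucleus and total. The labels do not say what a replicate number shares, so the numbers were not taken to pair the libraries in the main fit. What lies behind the positive value between nucleus and total was not tested. With a replicate block, 11778 genes were called between cytoplasm and nucleus, 9901 between cytoplasm and total and 12659 between nucleus and total. With the cytoplasmic numbers crossed, a pairing added after the data were seen, 11915 were called between cytoplasm and nucleus.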
